A study of Homo sapiens with 6 samples.

Results

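Glycolysis and the response to low oxygen are represented here by 32 genes, which were taken by gene name from a list of glucose transporters, enzymes from hexokinase to lactate dehydrogenase, lactate transporters, regulators of these steps and known hypoxia targets. All 32 were found among the 26184 genes and loci of the deposited table, and 29 had enough counts to be tested. The study compares Huh7 P, the untreated parental line of human hepatocellular carcinoma, with the resistant line Huh7 LR derived from it, with 3 RNA samples of each. Huh7 LR was grown in lenvatinib, an inhibitor of several receptor tyrosine kinases, at doses rising from 1 to 20 μM for about 10 months and was then maintained at 20 μM. Both groups carry the genotype WT in the labels. Whether the drug was present when RNA was collected is not stated. A single resistant line was made, so the drug, the long culture and selection cannot be told apart.

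Glycolysis splits glucose into pyruvate, which is reduced to lactate or enters the mitochondria. Several of its steps have a form typical of the liver, such as the transporter SLC2A2 and the pyruvate kinase gene PKLR, and a form common in proliferating cells and tumours, such as SLC2A1 and PKM. When oxygen is low, the HIF transcription factors escape degradation, bind DNA at sites with the core ACGTG or GCGTG, and raise many glycolytic genes together with genes such as ADM, NDRG1 and EGLN3.

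The counts totalled 71427573, 62738937 and 66961548 in replicates 1 to 3 of Huh7 P and 63233655, 70768720 and 67284160 in those of Huh7 LR. A count of 0 allows up to 3 counts at this depth, which is 0.042 to 0.0478 CPM and covers counting error only. Markers of hepatocytes were abundant in every library, with summed levels of 43554, 48600 and 52644 CPM in parental cells and 55953, 55043 and 58089 CPM in resistant cells. Per length, AFP was above ALB in every Huh7 P library and ALB above AFP in every Huh7 LR library. By edgeR 4 of the 9 markers, ALB, APOA1, TF and TTR, were higher in resistant cells and 0 were lower, against 23.3% and 22.4% of all genes and loci. Markers of the labelled cell type were thus present in both groups, and their part in the results was not tested.

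Of the 29 members tested, 7 were higher and 14 were lower in resistant cells at an adjusted p under 0.05 by edgeR's quasi-likelihood test. The same test called 23.3% of all 17531 genes and loci higher and 22.4% lower, so the share of higher members was close to that of all genes, and the share of lower members was above it. The median log2 fold change was -0.24 for the members and 0.00461 for all genes and loci tested. Where the adjusted p was under 0.001 and the change past 2-fold, 1 member was higher, SLC2A2, against 4.43% of all genes and loci, and 0 were lower, against 1.78%. DESeq2 and limma-trend also called 0 lower at an adjusted p under 0.001 and past 2-fold. At an unadjusted p under 0.05 by edgeR, 1 of the 29 members, HK1, was lower past 2-fold, against 565 of all 17531 genes and loci. The p-values measure the spread between 3 samples of each line, which the study describes as independent. In bulk RNA, fewer cells with a transcript and less of it per cell cannot be told apart.

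The plot of members by library shows where the calls lay. Of the 14 lower members, 12 were enzymes from hexokinase to lactate dehydrogenase, and the others were SLC2A1 and SLC16A1. Of the 7 higher members, 3 were hypoxia targets, and the others were SLC2A2, PFKL, PKLR and PFKFB4.

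**Figure D1:**
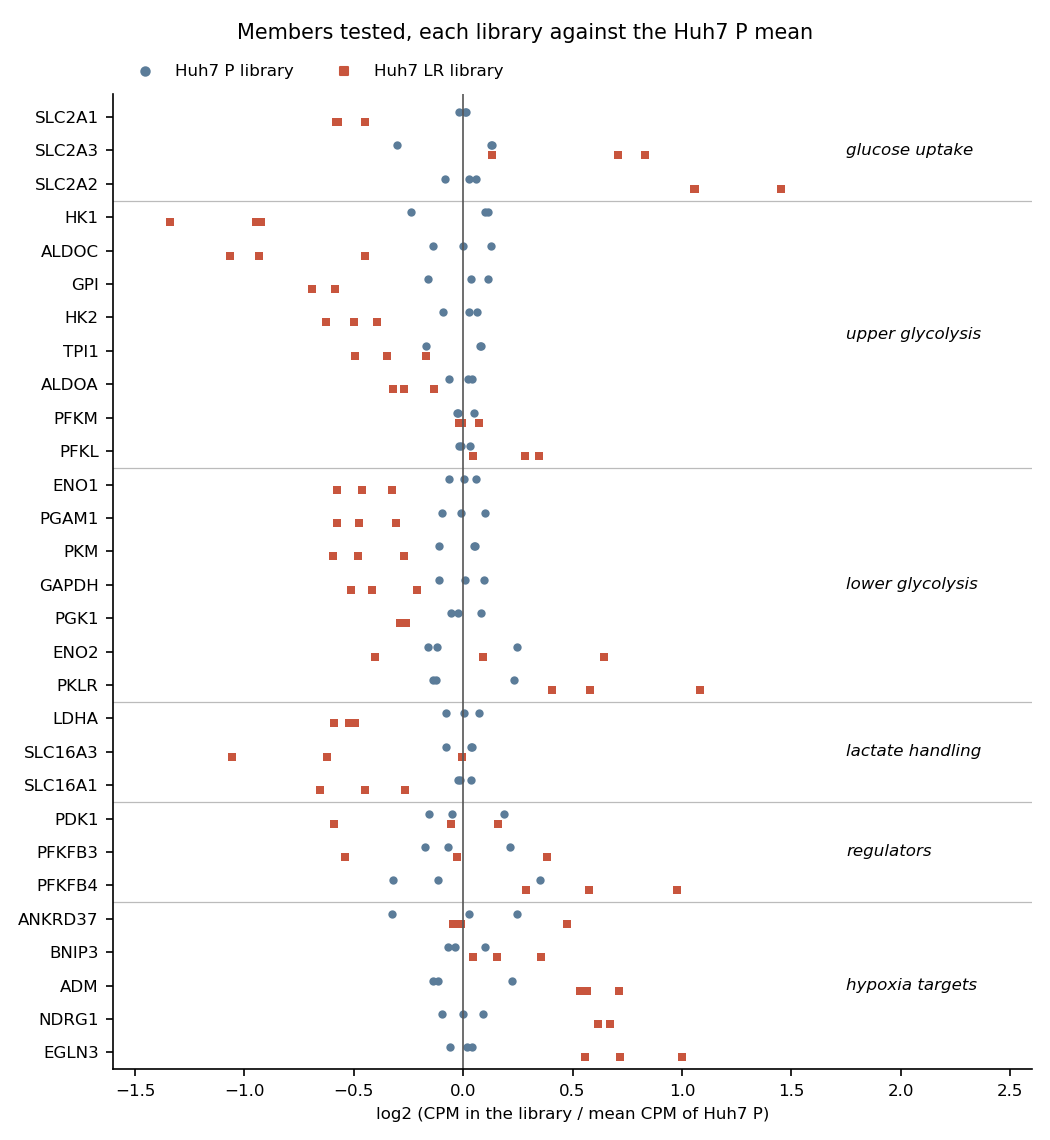
Each point is a library, placed by the log2 ratio of its CPM to the mean CPM of Huh7 P for the 29 members tested; circles are Huh7 P and squares are Huh7 LR. The squares of GPI, LDHA, ENO1 and SLC2A1 lie left of all circles of the same gene, and those of SLC2A2, NDRG1, ADM and EGLN3 lie right of them.

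Glucose enters the cell through facilitative transporters. SLC2A2, the low-affinity transporter of hepatocytes, was at 31.3, 33.8 and 34.5 CPM in the Huh7 P libraries and at 69.0, 69.1 and 90.8 CPM in the Huh7 LR libraries. Every Huh7 LR library was above every Huh7 P library, and replicate 3 of Huh7 LR was the highest. The mean was 33.2 ± 1.69 CPM (SD, n = 3) in the parental line, while in the resistant line it was 76.3 ± 12.6 CPM (SD, n = 3), and the log2 fold change was 1.201 (SE 0.11, adjusted p = 8.58e-06 by edgeR's quasi-likelihood test).

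SLC2A1, the transporter found in most growing cells, was at 81.5, 81.3 and 79.7 CPM in parental cells and at 54.4, 59.3 and 54.0 CPM in resistant cells. The groups did not overlap, and the values within each line were close to each other. Its log2 fold change was -0.53 (SE 0.07, adjusted p = 8.82e-05, edgeR's quasi-likelihood test). SLC2A3, a high-affinity transporter best known from neurons, had 11, 7 and 10 counts in parental and 10, 16 and 17 in resistant libraries. Its log2 fold change of 0.58 (SE 0.49, adjusted p = 0.363 by edgeR; 0.19 with limma-trend on log2(FPKM + 0.1) without filter) did not pass, and it is uncertain because SLC2A14 is nearly identical in sequence. SLC2A14 itself was higher in resistant cells, with a log2 fold change of 0.74 (SE 0.16, adjusted p = 0.00345 by edgeR), which was 0.46 on log2(FPKM + 1).

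Levels of different genes can be compared per length, on the FPKM scale of the authors. SLC2A1 was at 20.3 ± 0.32 FPKM (SD, n = 3) in parental cells against 9.52 ± 0.35 FPKM (SD, n = 3) for SLC2A2. In Huh7 LR the order was turned, with 14.3 ± 0.66 FPKM (SD, n = 3) for SLC2A1 and 22.5 ± 3.72 FPKM (SD, n = 3) for SLC2A2. As a share of the summed FPKM of SLC2A1, SLC2A2, SLC2A3, SLC2A4 and SLC2A14, SLC2A1 made up 64.7%, 63.8% and 63.0% in parental cells and 37.6%, 39.8% and 31.8% in resistant cells. These shares did not overlap (exact permutation test, 2-sided, p = 0.1, the smallest value that 3 samples against 3 can give; adjusted p = 0.171 over 12 enzyme and transporter families). The summed FPKM of the 5 genes was 31.8 ± 0.11 (SD, n = 3) in parental cells and 39.4 ± 3.31 (SD, n = 3) in resistant cells.

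**Figure D2:**
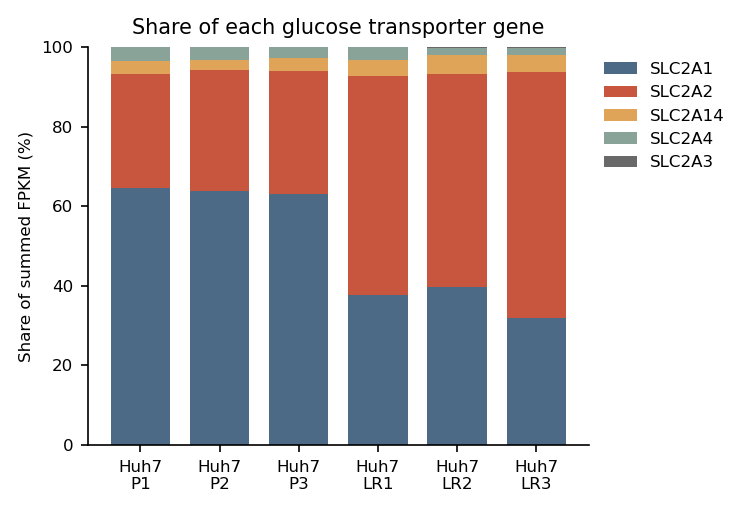
Bars show, for each library, the share in percent of the summed FPKM of 5 glucose transporter genes that each gene makes up. SLC2A1 is the largest part in all 3 Huh7 P libraries (63.0% to 64.7%), and SLC2A2 is the largest part in all 3 Huh7 LR libraries (53.5% to 61.96%).

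The promoter of SLC2A2 is shown because it was the member that changed most. The windows run from 250 bases before to 50 bases after a RefSeq start site (GRCh38.p14), and 29 of the 32 members matched, with 56 windows. They were searched on both strands for ACGTG and GCGTG, and capitals mark these letters or their reverse complement. The palindrome CACGTG holds ACGTG on both strands, so such places are counted on each strand. ACGTG was present in 21.4% of all 35116 RefSeq windows and in 39.3% of the members' windows, and GCGTG in 36.5% and 37.5%. A match is a description and not a binding site. The window of SLC2A2 (chr3:171026671-171026970, minus strand) held neither sequence, which says only that these letters are not in it.
SLC2A2: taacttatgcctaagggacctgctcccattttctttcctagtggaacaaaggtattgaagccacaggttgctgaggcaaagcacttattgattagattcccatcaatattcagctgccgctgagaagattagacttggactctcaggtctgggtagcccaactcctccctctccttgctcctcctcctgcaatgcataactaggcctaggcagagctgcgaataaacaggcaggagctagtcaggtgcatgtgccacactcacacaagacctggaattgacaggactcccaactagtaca

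Upper glycolysis covers the steps from glucose to the triose phosphates. Of its 9 members, 8 were tested, with 6 lower and 1 higher in resistant cells by edgeR, against 22.4% and 23.3% of all genes and loci, and a median log2 fold change of -0.42. By limma-trend on log2(FPKM + 0.1) 4 were lower, against 3214 of the 13746 genes and loci that it tested. HK1 was not tested there, because it fell under the filter of at least 0.5 FPKM in 3 libraries. HK2, the hexokinase typical of tumours, was at 86.8, 89.2 and 80.0 CPM in parental cells and at 65.0, 55.2 and 60.5 CPM in resistant cells, with no overlap. Its log2 fold change was -0.50 (SE 0.08, adjusted p = 0.000387, edgeR's quasi-likelihood test). HK1, the broadly expressed hexokinase, was low throughout, at 2.09, 2.11 and 1.65 CPM in parental cells and 1.03, 0.771 and 1.01 CPM in resistant cells. All Huh7 LR libraries were below all Huh7 P libraries, and the log2 fold change was -1.06 (SE 0.22, adjusted p = 0.00227, edgeR's quasi-likelihood test).

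Per length, HK2 was at 13.6 ± 0.83 FPKM (SD, n = 3) and HK1 at 0.532 ± 0.06 FPKM (SD, n = 3) in parental cells. HK2 made up 93.5 ± 0.5% (SD, n = 3) of the summed hexokinase FPKM in parental cells and 95.6 ± 0.3% (SD, n = 3) in resistant cells (exact permutation test, p = 0.1).

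GPI, which converts glucose 6-phosphate to fructose 6-phosphate, was at 330.01, 313 and 273 CPM in parental cells and 189, 204 and 189 CPM in resistant cells. The groups were well apart, and the log2 fold change was -0.65 (SE 0.08, adjusted p = 8.44e-05, edgeR's quasi-likelihood test). Phosphofructokinase catalyses the committed step. Its liver form PFKL was at 232, 241 and 234 CPM in parental cells and 243, 299 and 287 CPM in resistant cells. The lowest Huh7 LR library, replicate 1, was just above the highest Huh7 P library. The log2 fold change of 0.23 (SE 0.08, adjusted p = 0.0404 by edgeR) did not pass without Huh7 LR replicate 2 (0.0755), Huh7 LR replicate 3 (0.14), Huh7 P replicate 1 (0.109), Huh7 P replicate 2 (0.0836) or Huh7 P replicate 3 (0.111) or with limma-trend on log2(FPKM + 0.1) without filter (0.051), adjusted p from 0.00309 to 0.14 over all alternatives.

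The muscle form PFKM overlapped between the lines, with a log2 fold change of 0.02 (SE 0.07, adjusted p = 0.852 by edgeR; -0.01 without Huh7 LR replicate 1 to 0.05 without Huh7 P replicate 2), and it shares exon sequence with SENP1 on the opposite strand. The platelet form PFKP had at most 7 counts in a library and was not tested. PFKL made up 59.2 ± 0.52% (SD, n = 3) of the summed phosphofructokinase FPKM in parental cells and 63.1 ± 3.05% (SD, n = 3) in resistant cells (exact permutation test, p = 0.1, adjusted p = 0.171 over the 12 families). By library the share was 59.69%, 58.66% and 59.12% in parental cells and 59.69%, 65.55% and 64.11% in resistant cells. Huh7 LR replicate 1 thus equalled Huh7 P replicate 1 at this rounding, and replicates 2 and 3 of Huh7 LR lay above.

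Aldolase cleaves fructose 1,6-bisphosphate. ALDOA, its main form in growing cells, was at 645, 638 and 600.1 CPM in parental cells and 520, 573 and 503 CPM in resistant cells. No Huh7 LR library reached the lowest Huh7 P library. The log2 fold change was -0.24 (SE 0.07, adjusted p = 0.02 by edgeR), and it did not pass without Huh7 LR replicate 3 (0.102), Huh7 P replicate 1 (0.061) or Huh7 P replicate 2 (0.0854) or with limma-trend on log2(FPKM + 0.1) without filter (0.103), limma-trend on log2(FPKM + 0.1) (0.0504) or limma-trend on log2(FPKM + 1) (0.0506), adjusted p from 0.00274 to 0.103 over all alternatives. ALDOA is uncertain because AC093512.2 covers 42.3% of its exon bases on the same strand. AC093512.2 had a log2 fold change of -0.89 (SE 0.10, adjusted p = 5.34e-05 by edgeR).

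ALDOC, known from brain, was at 1.96, 1.799 and 1.64 CPM in parental cells and 0.859, 0.942 and 1.32 CPM in resistant cells. The groups did not overlap, and the log2 fold change was -0.79 (SE 0.23, adjusted p = 0.0144 by edgeR). This did not pass without Huh7 P replicate 1 (0.0546) or with limma-trend on log2(FPKM + 0.1) without filter (0.0763), adjusted p from 0.00912 to 0.0763 over all alternatives, and on log2(FPKM + 1) the value was -0.28.

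Per length, ALDOA was at 387 ± 24.4 FPKM (SD, n = 3) in parental cells and 335 ± 20.1 FPKM (SD, n = 3) in resistant cells. TPI1, which interconverts the triose phosphates, was at 790.3, 939 and 936 CPM in parental cells and 630, 789 and 699 CPM in resistant cells. Huh7 LR replicate 2 lay just under Huh7 P replicate 1. On the log2 scale the change was -0.33 (SE 0.10, adjusted p = 0.0163 by edgeR) and did not pass without Huh7 LR replicate 3 (0.0574), Huh7 P replicate 2 (0.0789) or Huh7 P replicate 3 (0.0657) or with limma-trend on log2(FPKM + 0.1) without filter (0.0877), adjusted p from 0.00209 to 0.0877 over all alternatives.

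**Figure D3:**
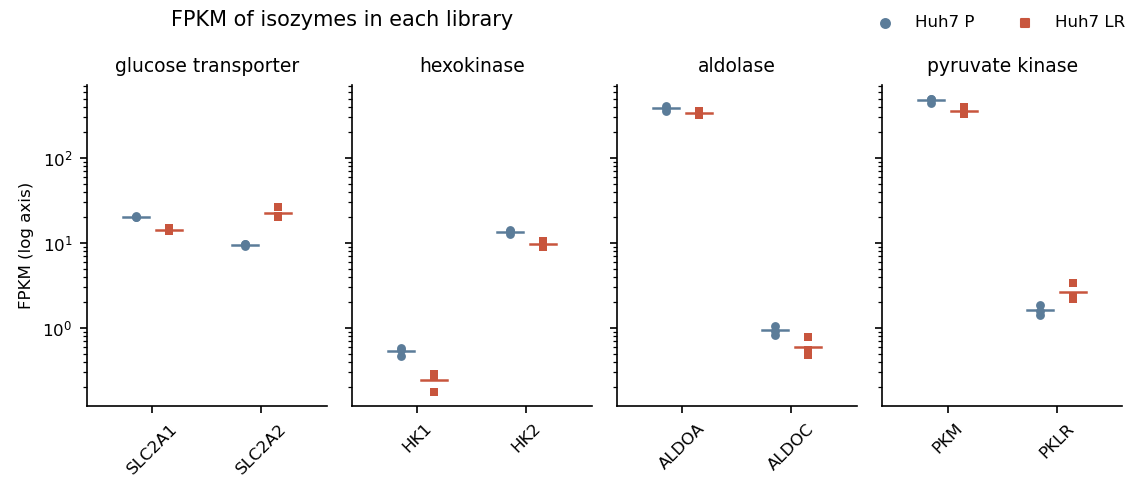
FPKM of isozymes on a log axis, with a point for each library and a bar at the mean of 3 libraries. The order of SLC2A1 and SLC2A2 differs between Huh7 P and Huh7 LR, while HK2, ALDOA and PKM are above the other gene shown beside them in all 6 libraries.

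Lower glycolysis yields ATP and pyruvate. All 7 members were tested, with 5 lower and 1 higher in resistant cells by edgeR, against 22.4% and 23.3% of all genes and loci, and a median log2 fold change of -0.38. GAPDH, which oxidises glyceraldehyde 3-phosphate, had the most counts of the members, at 3516, 3817 and 4044 CPM in parental cells and 2657, 3278 and 2838 CPM in resistant cells. The lines did not overlap, and the log2 fold change was -0.38 (SE 0.09, adjusted p = 0.00577 by edgeR), which did not pass with limma-trend on log2(FPKM + 0.1) without filter (0.0844), adjusted p from 0.000118 to 0.0844 over all alternatives. GAPDH is often used as a reference gene. The summed CPM of the 18 glycolytic enzyme genes, lactate dehydrogenase included, was 10290 ± 498 CPM (SD, n = 3) in parental cells and 7925 ± 682 CPM (SD, n = 3) in resistant cells, a ratio of 0.77. GAPDH made up 36.8 ± 1.26% (SD, n = 3) of that sum in parental cells and 36.8 ± 0.83% (SD, n = 3) in resistant cells.

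PGK1, the first enzyme of the pathway to make ATP, was at 283, 311 and 290 CPM in parental cells and 244, 246 and 241 CPM in resistant cells. The Huh7 LR libraries lay close together under all Huh7 P libraries. The log2 fold change was -0.27 (SE 0.07, adjusted p = 0.00612 by edgeR), and did not pass without Huh7 P replicate 2 (0.0546), adjusted p from 0.000154 to 0.0546 over all alternatives. The promoter of PGK1 is shown, after its values were seen, as that of a lower gene with several matches. Its window (chrX:78103998-78104297, plus strand) held ACGTG once on the plus strand and at 2 places on the minus strand, and GCGTG 211 bases before the start.
PGK1: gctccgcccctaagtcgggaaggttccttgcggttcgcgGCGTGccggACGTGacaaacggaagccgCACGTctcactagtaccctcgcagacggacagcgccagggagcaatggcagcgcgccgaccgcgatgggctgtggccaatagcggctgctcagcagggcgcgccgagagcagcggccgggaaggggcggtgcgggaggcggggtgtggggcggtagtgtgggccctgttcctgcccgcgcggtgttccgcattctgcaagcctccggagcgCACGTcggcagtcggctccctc

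PGAM1, which moves the phosphate group of 3-phosphoglycerate, ENO1, the main enolase, and PKM, the pyruvate kinase of growing cells, were lower in resistant cells by similar amounts. PGAM1 went from 525 ± 35.4 to 385 ± 37.2 CPM (SD, n = 3) and ENO1 from 1252 ± 52.0 to 915 ± 79.9 CPM (SD, n = 3). Their log2 fold changes were -0.45 for PGAM1 (adjusted p = 0.0014) and -0.45 for ENO1 (adjusted p = 0.000796) by edgeR's quasi-likelihood test. Neither gene overlapped between the lines. PGAM1 is uncertain because PGAM4 is nearly identical in sequence. ENO2, the neuronal enolase, was at 1.91, 1.96 and 2.52 CPM in parental cells and 3.33, 1.61 and 2.27 CPM in resistant cells. Huh7 LR held both the highest and the lowest value, and the difference did not pass (log2 fold change 0.17, SE 0.25, adjusted p = 0.613 by edgeR). With a library left out ENO2 was from -0.13 (without Huh7 LR replicate 1) to 0.40 (without Huh7 LR replicate 2).

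PKM was at 1114, 1246 and 1251 CPM in parental cells and 797, 999 and 862 CPM in resistant cells. Every Huh7 LR library was under every Huh7 P library, with a log2 fold change of -0.44 (SE 0.09, adjusted p = 0.00232, edgeR's quasi-likelihood test). PKLR, the pyruvate kinase of liver and red cells, moved the other way, at 4.21, 4.25 and 5.44 CPM in parental cells and 9.82, 6.14 and 6.93 CPM in resistant cells. Replicate 1 of Huh7 LR was the highest, and the lines did not overlap. The log2 fold change of PKLR was 0.72 (SE 0.18, adjusted p = 0.00837, edgeR's quasi-likelihood test; 0.47 on log2(FPKM + 1)), and 17.6% of its exon bases lie opposite HCN3, which had a log2 fold change equal to 0.04 (adjusted p = 0.742 by edgeR).

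Per length, PKM was far above PKLR in both lines. PKM was at 477 ± 26.8 FPKM (SD, n = 3) in parental cells and 358 ± 38.7 FPKM (SD, n = 3) in resistant cells, and PKLR was at 1.62 ± 0.23 and 2.65 ± 0.67 FPKM (SD, n = 3). PKLR made up 0.353%, 0.286% and 0.379% of the summed pyruvate kinase FPKM in parental cells and 1.04%, 0.538% and 0.677% in resistant cells. These shares did not overlap (exact permutation test, p = 0.1). The share of PKM differed by -0.412 percentage points between the lines, by -1.301 when counts per kilobase of annotated exon were used and by -0.268 without Huh7 LR replicate 1. Splicing forms of PKM cannot be read from counts per gene. PKLR has 2 windows, and a promoter of it is shown, chosen after its values were seen, because only 1 of them held a match. The upstream window (chr1:155301389-155301688, minus strand) held CACGTG 197 bases before the start, a sequence present in 7.26% of all windows, and the downstream window (chr1:155300903-155301202) held 0 matches. Which start the cells use cannot be read from counts per gene.
PKLR: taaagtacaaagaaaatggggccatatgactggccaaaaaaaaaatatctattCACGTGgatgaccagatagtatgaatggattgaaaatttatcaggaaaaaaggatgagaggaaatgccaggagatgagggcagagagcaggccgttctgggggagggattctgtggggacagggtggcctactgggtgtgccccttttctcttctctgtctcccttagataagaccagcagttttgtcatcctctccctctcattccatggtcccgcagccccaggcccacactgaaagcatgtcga

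Pyruvate is reduced to lactate, which leaves the cell through monocarboxylate transporters. Of the 4 members of this role 3 were tested, with a median log2 fold change of -0.50. Lower were 2 by edgeR, against 22.4% of all genes and loci, 2 by DESeq2, 3 by limma-trend and 3 at an unadjusted p under 0.05 by edgeR, and the number higher was 0 in each. At that unadjusted p, 4550 of all 17531 genes and loci were lower. LDHA, the lactate dehydrogenase subunit linked to lactate production, was at 852, 948 and 902 CPM in parental cells and 626, 639 and 597 CPM in resistant cells. The Huh7 LR libraries were all below the Huh7 P libraries. The mean was 901 ± 47.7 CPM (SD, n = 3) in the parental line, while in the resistant line it was 621 ± 21.6 CPM (SD, n = 3), and the log2 fold change was -0.54 (SE 0.07, adjusted p = 0.000112 by edgeR's quasi-likelihood test). LDHB, the other main subunit, had 4, 7 and 9 counts in parental cells and 0, 4 and 8 counts in resistant cells and was not tested. LDHA made up nearly all lactate dehydrogenase FPKM in each library, and LDHB reached at most 0.0232% of it.

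The promoter of LDHA is shown as that of a lower gene with several matches, chosen after its values were seen. LDHA has 2 windows, and the one with more matches is shown. It (chr11:18394313-18394612, plus strand) held CACGTG 185 and 87 bases before the start, ACGTG once more on the minus strand 73 bases before it, and GCGTG on the minus strand. The other window (chr11:18396101-18396400) held 1 match, a GCGTG.
LDHA: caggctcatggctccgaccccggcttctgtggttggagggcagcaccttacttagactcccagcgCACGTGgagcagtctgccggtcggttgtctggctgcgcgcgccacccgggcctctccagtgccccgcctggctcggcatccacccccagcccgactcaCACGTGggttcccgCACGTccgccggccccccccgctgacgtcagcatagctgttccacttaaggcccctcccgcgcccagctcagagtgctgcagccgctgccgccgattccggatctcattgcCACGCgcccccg

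SLC16A1, a transporter of lactate in both directions, was at 191, 184 and 185 CPM in parental cells and 155, 118 and 137 CPM in resistant cells. The lines did not overlap, and the log2 fold change was -0.45 (SE 0.09, adjusted p = 0.0023, edgeR's quasi-likelihood test). SLC16A3, the lactate exporter of glycolytic cells, was at 37.4, 40.4 and 40.5 CPM in parental cells and 39.3, 19.0 and 25.6 CPM in resistant cells. Replicate 1 of Huh7 LR lay among the Huh7 P libraries and the other Huh7 LR libraries lay below. On the log2 scale the change was -0.50 (SE 0.20, adjusted p = 0.0613 by edgeR), which did not pass. It was -0.82 without Huh7 LR replicate 1 and -0.27 without Huh7 LR replicate 2. It passed without Huh7 LR replicate 1 (0.000225) or with limma-trend on log2(FPKM + 0.1) (0.042), limma-trend on log2(FPKM + 1) (0.0405), no filter on low counts (0.0442) or replicate block (0.0155), adjusted p from 0.000225 to 0.216 over all alternatives. SLC16A3 shares 5.36% of its exon bases with CSNK1D on the opposite strand. BSG, the chaperone of both transporters, named after its value was seen, had a log2 fold change of -0.25 (SE 0.07, adjusted p = 0.016 by edgeR), and did not pass without Huh7 LR replicate 3 (0.0872), Huh7 P replicate 2 (0.0545) or Huh7 P replicate 3 (0.052) or with limma-trend on log2(FPKM + 0.1) without filter (0.0699), adjusted p from 0.00183 to 0.0872 over all alternatives.

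Of the 3 regulators, 1, PFKFB4, was higher in resistant cells by edgeR (33.3%), against 23.3% of all genes and loci. The other regulators did not pass. PFKFB4, which sets the level of the activator fructose 2,6-bisphosphate, was at 12.2, 19.4 and 14.1 CPM in parental cells and 30.0, 18.6 and 22.7 CPM in resistant cells. Huh7 LR replicate 2 lay below Huh7 P replicate 2, so the lines overlapped. It had a log2 fold change of 0.64 (SE 0.19, adjusted p = 0.0168 by edgeR) and did not pass without Huh7 LR replicate 1 (0.0585), Huh7 P replicate 1 (0.0761) or Huh7 P replicate 3 (0.0718) or with limma-trend on log2(FPKM + 0.1) without filter (0.0729), adjusted p from 0.00176 to 0.0761 over all alternatives.

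PFKFB3, an enzyme of the same family with high kinase activity, was at 38.1, 46.3 and 35.4 CPM in parental cells and 27.4, 52.1 and 39.1 CPM in resistant cells. Within resistant cells, replicate 1 was the lowest for PFKFB3 and the highest for PFKFB4. The log2 fold change of PFKFB3 was -0.01 (SE 0.19, adjusted p = 0.962 by edgeR), from -0.26 (without Huh7 LR replicate 2) to 0.19 (without Huh7 LR replicate 1) with a library left out. PDK1, which inhibits pyruvate dehydrogenase, ranged from 13.9 to 17.6 CPM in parental cells and from 10.3 to 17.3 CPM in resistant cells (log2 fold change -0.13, SE 0.17, adjusted p = 0.565 by edgeR). With a library left out PDK1 was from -0.30 (without Huh7 LR replicate 1) to 0.07 (without Huh7 LR replicate 2).

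Among the 6 hypoxia targets, 5 were tested and 3 were higher in resistant cells by edgeR, against 23.3% of all genes and loci, with a median log2 fold change of 0.61. None of the 5 was lower by edgeR, DESeq2 or limma-trend, nor at an unadjusted p under 0.05 by edgeR, where the count was 0. ANKRD37 fell under the FPKM filter of limma-trend and was not tested there. Of all 17531 genes and loci edgeR called 22.4% lower at its adjusted p, and 4550 were lower at the unadjusted p. NDRG1, a stress-responsive gene, was at 244, 278 and 261 CPM in parental cells and 416, 400.2 and 400.6 CPM in resistant cells. The lines were far apart, with a log2 fold change of 0.64 (SE 0.07, adjusted p = 3.97e-05, edgeR's quasi-likelihood test).

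EGLN3, a HIF prolyl hydroxylase that is itself induced by HIF, was at 4.26, 3.99 and 4.21 CPM in parental cells and 8.32, 6.11 and 6.83 CPM in resistant cells. No library of the lines overlapped, and the log2 fold change was 0.77 (SE 0.14, adjusted p = 0.00116, edgeR's quasi-likelihood test). ADM, which encodes the peptide adrenomedullin, was at 7.54, 7.65 and 9.68 CPM in parental cells and 12.3, 13.6 and 12.01 CPM in resistant cells. The Huh7 LR values were again all above the Huh7 P values (log2 fold change 0.61, SE 0.12, adjusted p = 0.00224 by edgeR).

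BNIP3, a mitophagy receptor, was at 103, 116 and 105 CPM in parental cells and 138, 111 and 120.4 CPM in resistant cells. Replicate 2 of Huh7 LR lay under the highest Huh7 P library. On the log2 scale the change was 0.19 (SE 0.09, adjusted p = 0.103 by edgeR) and did not pass. The value was 0.10 without Huh7 LR replicate 1 and 0.27 without Huh7 LR replicate 2. It passed without Huh7 LR replicate 2 (0.022), adjusted p from 0.022 to 0.319 over all alternatives. ANKRD37 had 21, 21 and 15 counts in parental cells and 26, 20 and 19 counts in resistant cells, and it shares 35.2% of its exon bases with UFSP2 on the opposite strand (log2 fold change 0.16, SE 0.40, adjusted p = 0.776 by edgeR). With a library left out ANKRD37 was from -0.03 (without Huh7 LR replicate 1) to 0.30 (without Huh7 P replicate 2). CA9, a carbonic anhydrase often used as a hypoxia marker, had 2, 0 and 0 counts in parental cells and 0, 0 and 3 counts in resistant cells and was not tested.

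A further list of 39 hypoxia targets was examined next to these members. Like the members and the other lists, it was chosen with earlier results of these data known. Of the 38 tested, 20 were higher and 4 were lower in resistant cells by edgeR, a share of 52.6% higher and 10.5% lower against 23.3% and 22.4% of all genes and loci. Their median log2 fold change was 0.42. Past 2-fold at an adjusted p under 0.001, 6 of the 38 were higher and 1 was lower, against 4.43% and 1.78% of all genes and loci. ANGPTL4, a secreted inhibitor of lipoprotein lipase, was at 2.51, 2.45 and 2.31 CPM in parental cells and 10.2, 10.5 and 7.90 CPM in resistant cells, and its log2 fold change was 1.98 (SE 0.15, adjusted p = 2.51e-06 by edgeR).

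HMOX1, the heme oxygenase that also answers oxidative stress, was at 25.2, 23.0 and 22.2 CPM in parental cells and 46.5, 79.0 and 65.0 CPM in resistant cells. Its log2 fold change was 1.44 (SE 0.16, adjusted p = 3.23e-05 by edgeR). For LOXL2, a lysyl oxidase, it was 1.39 (SE 0.17), for KCTD11 1.23 (SE 0.14), for TMEM45A 1.22 (SE 0.15) and for P4HA2, a collagen prolyl hydroxylase, 1.13 (SE 0.08), with adjusted p of 8.49e-05, 3.68e-05, 7.11e-05 and 1.52e-06 by edgeR. LOXL2 was at 0.64 when summed with ENTPD4, which shares exon sequence with it, and on log2(FPKM + 1) LOXL2 was at 0.61 and KCTD11 at 0.76. None of these 6 overlapped between the lines. They were named because they were higher past 2-fold at an adjusted p under 0.001 by edgeR, so this is not a separate result about hypoxia targets.

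VEGFA, the main angiogenic factor and the ligand of receptors that lenvatinib inhibits, was at 76.2, 72.8 and 74.5 CPM in parental cells and 131, 103 and 107 CPM in resistant cells. The lines did not overlap, with a log2 fold change of 0.61 (SE 0.09, adjusted p = 0.000279 by edgeR). TXNIP, an inhibitor of glucose uptake that glucose itself induces, was at 54.1, 56.5 and 61.5 CPM in parental cells and 114, 64.4 and 78.4 CPM in resistant cells. All Huh7 LR values were higher and replicate 1 stood above the rest, and without Huh7 LR replicate 1 the log2 fold change was 0.32. Its log2 fold change was 0.58 (SE 0.16, adjusted p = 0.0138 by edgeR) and did not pass without Huh7 P replicate 1 (0.0567) or with DESeq2 Wald test (0.0627) or limma-trend on log2(FPKM + 0.1) without filter (0.0772), adjusted p from 0.00128 to 0.0772 over all alternatives.

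The 4 lower genes of this list were RAB20, STC2, LOX and ERO1A, of which the last 3 were named after their values were seen. RAB20 was low, at 0.697, 0.583 and 0.948 CPM in parental cells and 0.215, 0.114 and 0.117 CPM in resistant cells, with a log2 fold change of -2.31 (SE 0.41, adjusted p = 0.000876 by edgeR). STC2 had a log2 fold change equal to -0.59 (adjusted p = 0.000232) and LOX of -0.45 (adjusted p = 0.0018) by edgeR. ERO1A had -0.37 (adjusted p = 0.0249 by edgeR) and -0.24 without Huh7 LR replicate 2, and did not pass without Huh7 LR replicate 2 (0.072), Huh7 LR replicate 3 (0.0834), Huh7 P replicate 2 (0.064) or Huh7 P replicate 3 (0.0975) or with library totals alone (0.0555), limma-trend on log2(FPKM + 0.1) without filter (0.131), limma-trend on log2(FPKM + 0.1) (0.0604) or limma-trend on log2(FPKM + 1) (0.0594), adjusted p from 0.000514 to 0.131 over all alternatives. ERO1A, VEGFA, LDHA and PGK1, picked after their values were seen, are all known as HIF targets. Of these VEGFA was higher and the others were lower, whereas of the 38 further targets tested 20 were higher and 4 lower.

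**Figure D4:**
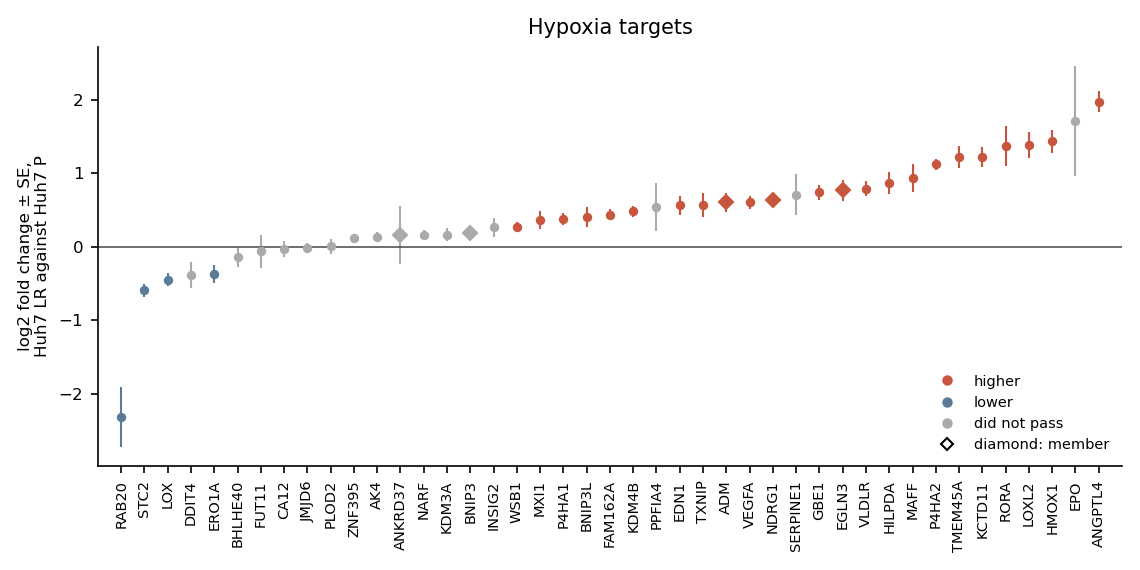
Log2 fold changes of Huh7 LR against Huh7 P with standard errors for the 43 hypoxia targets tested, ordered by size; diamonds are the 5 members and colours give the call at an adjusted p under 0.05. The range runs from RAB20 (-2.31) to ANGPTL4 (1.98), and more genes were higher than lower.

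Of the genes that form or control HIF, 11 were tested and 3 were higher, which is 27.3% against 23.3% of all genes and loci. ARNT, the partner of the HIF alpha subunits, was at 43.2, 43.7 and 45.9 CPM in parental cells and 67.9, 66.5 and 68.5 CPM in resistant cells, a log2 fold change of 0.61 (SE 0.07, adjusted p = 2.94e-05 by edgeR). EPAS1, which encodes HIF-2 alpha, was at 249, 252 and 240 CPM in parental cells and 265, 358 and 308 CPM in resistant cells. The lines did not overlap for either gene. The log2 fold change of EPAS1 was 0.33 (SE 0.10, adjusted p = 0.0177 by edgeR) and did not pass without Huh7 P replicate 3 (0.0693), adjusted p from 0.00122 to 0.0693 over all alternatives. CITED2, a feedback inhibitor of HIF named after its value was seen, had a log2 fold change of 0.62 (SE 0.07, adjusted p = 4.37e-05 by edgeR).

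HIF1A, which encodes HIF-1 alpha, was at 218, 213 and 240.04 CPM in parental cells and 201, 195 and 209 CPM in resistant cells. All Huh7 LR values were lower, but the log2 fold change of -0.15 (SE 0.07, adjusted p = 0.115 by edgeR) did not pass. VHL, EGLN1 and HIF1AN, which mark HIF alpha for degradation or block its activity, did not pass either, with log2 fold changes of 0.09, -0.12 and 0.15 (adjusted p = 0.335, 0.168 and 0.0852 by edgeR). Without Huh7 P replicate 3 HIF1A was at -0.10 and VHL at 0.03, and EGLN1 was at -0.08 without Huh7 LR replicate 2. HIF1AN passed with a minimum of 10 counts in every library (0.0485), library totals alone (0.0484) or upper-quartile factors (0.0352), adjusted p from 0.0352 to 0.288 over all alternatives. By edgeR 0 genes of this list were lower, against 22.4% of all genes and loci, and DESeq2 and limma-trend gave 0 as well. At an unadjusted p under 0.05 by edgeR, 1 was lower, against 4550 of all 17531 genes and loci. HIF is controlled largely at the protein level, which was not measured in these data.

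Further genes of glucose entry and glycolysis numbered 34, of which 25 were tested, 8 were higher (32%) and 4 were lower (16%), against 23.3% and 22.4% of all genes and loci, with a median log2 fold change of 0.03. MLXIPL, the glucose-sensing transcription factor ChREBP that is known to drive PKLR, was at 30.7, 24.4 and 28.6 CPM in parental cells and 91.3, 69.0 and 78.1 CPM in resistant cells. The lowest Huh7 LR library was well above the highest Huh7 P library. Its log2 fold change was 1.51 (SE 0.11, adjusted p = 2.84e-06, edgeR's quasi-likelihood test). SLC2A12, another glucose transporter, was at 2.49, 2.46 and 2.34 CPM in parental cells and 5.66, 4.48 and 5.36 CPM in resistant cells (log2 fold change 1.09, SE 0.15, adjusted p = 0.000148 by edgeR; 0.47 on log2(FPKM + 1)), and 38.9% of its exon bases lie opposite TBPL1. The 4 lower genes, named for completeness after their values were seen, were HKDC1, PGAM4, PGM2 and BSG. The hexokinase-like HKDC1 had a log2 fold change equal to -1.06 (adjusted p = 0.00395), PGAM4 of -0.81 (adjusted p = 0.00559) and the phosphoglucomutase PGM2 of -0.64 (adjusted p = 4.62e-05) by edgeR. On log2(FPKM + 1) PGAM4 was at -0.51.

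Pyruvate reaches the citric acid cycle through its mitochondrial carrier and the pyruvate dehydrogenase complex. Of 14 genes, all tested, 3 were higher (21.4%) and 5 were lower (35.7%), against 23.3% and 22.4% of all genes and loci. The median log2 fold change was -0.11, and those named here were chosen after their values were seen. PDHX, DLAT and DLD, subunits of the complex, had log2 fold changes of -0.71, -0.66 and -0.48 (adjusted p = 1.76e-05, 1.4e-05 and 0.000222 by edgeR). PC, which makes oxaloacetate from pyruvate, had -0.35 (adjusted p = 0.00445), and PDHA1 -0.25 (adjusted p = 0.0136), both by edgeR. PDHA1 did not pass without Huh7 LR replicate 3 (0.0591) or Huh7 P replicate 2 (0.0721), adjusted p from 0.00157 to 0.0721 over all alternatives. Higher were the kinase PDK3, with 0.86 (adjusted p = 0.000528 by edgeR), the carrier subunit MPC1, with 0.26 (adjusted p = 0.00677 by edgeR), and the phosphatase PDP1, with 0.35 (adjusted p = 0.0302 by edgeR). On log2(FPKM + 1) PDK3 was at 0.47 and PDP1 at 0.202. PDP1 did not pass without Huh7 LR replicate 3 (0.107), Huh7 P replicate 2 (0.117) or Huh7 P replicate 3 (0.0776) or with limma-trend on log2(FPKM + 0.1) without filter (0.131), limma-trend on log2(FPKM + 0.1) (0.0785) or limma-trend on log2(FPKM + 1) (0.0718), adjusted p from 0.0181 to 0.131 over all alternatives.

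Of 10 genes of the pentose phosphate pathway, which yields NADPH and ribose, 9 were tested, 2 were higher (22.2%) and 5 were lower (55.6%), against 23.3% and 22.4% of all genes and loci, with a median log2 fold change of -0.30. RPIA, RPE, TKT and TALDO1, named after their values were seen, had log2 fold changes between -0.52 and -0.30. H6PD, which acts in the endoplasmic reticulum, went the other way (0.79, SE 0.09, adjusted p = 4.14e-05 by edgeR), as did PGLS (0.27, adjusted p = 0.0284 by edgeR). The call of PGLS was lost without Huh7 LR replicate 3 (0.0671), Huh7 P replicate 2 (0.146) or Huh7 P replicate 3 (0.0661), adjusted p from 0.0144 to 0.146 over all alternatives. That of RPE was lost without Huh7 P replicate 2 (0.0681) or Huh7 P replicate 3 (0.0577), adjusted p from 0.00268 to 0.0681 over all alternatives.

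Of 16 glycogen genes, all tested, 4 were higher (25%) and 3 were lower (18.8%), against 23.3% and 22.4% of all genes and loci. The median log2 fold change was 0.10, and those named were chosen after their values were seen. PYGL, the liver glycogen phosphorylase, was at 192, 204 and 192 CPM in parental cells and 283, 335 and 323 CPM in resistant cells, with a log2 fold change of 0.68 (SE 0.08, adjusted p = 4.76e-05 by edgeR). PPP1R3C, a glycogen-targeting phosphatase subunit, and PHKA2, the liver phosphorylase kinase subunit, had 0.87 and 0.72 (adjusted p = 0.000642 and 6.7e-05 by edgeR). UGP2, which makes UDP-glucose, and GYG1, the primer of glycogen, had -0.41 and -0.52 (adjusted p = 0.00104 and 0.000922 by edgeR).

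The remaining glycogen genes with a call were PYGB and GYS2. PYGB, the brain phosphorylase, had a log2 fold change of 0.19 (SE 0.07, adjusted p = 0.0435 by edgeR) and did not pass without Huh7 LR replicate 2 (0.057), Huh7 LR replicate 3 (0.0652), Huh7 P replicate 1 (0.0963), Huh7 P replicate 2 (0.122) or Huh7 P replicate 3 (0.131) or with replicate block (0.0546), adjusted p from 0.0168 to 0.131 over all alternatives. GYS2, the liver glycogen synthase, had 105, 108 and 99 counts in parental libraries and 41, 0 and 48 in resistant libraries and a log2 fold change of -1.83 (SE 0.69, adjusted p = 0.0494 by edgeR). It did not pass without Huh7 LR replicate 3 (0.0507), Huh7 P replicate 1 (0.099), Huh7 P replicate 2 (0.114) or Huh7 P replicate 3 (0.108) or with DESeq2 Wald test (0.353), DESeq2 size factors (0.0509), library totals alone (0.065) or upper-quartile factors (0.0551), adjusted p from 0.00108 to 0.353 over all alternatives, and without Huh7 LR replicate 2 the value was -1.23. GYS2 is uncertain, as 87.6% of its exon bases are shared on the same strand with AC010197.2, which had 28 counts in Huh7 LR replicate 2, where GYS2 had 0, and 0 counts in the other libraries.

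**Figure D5:**
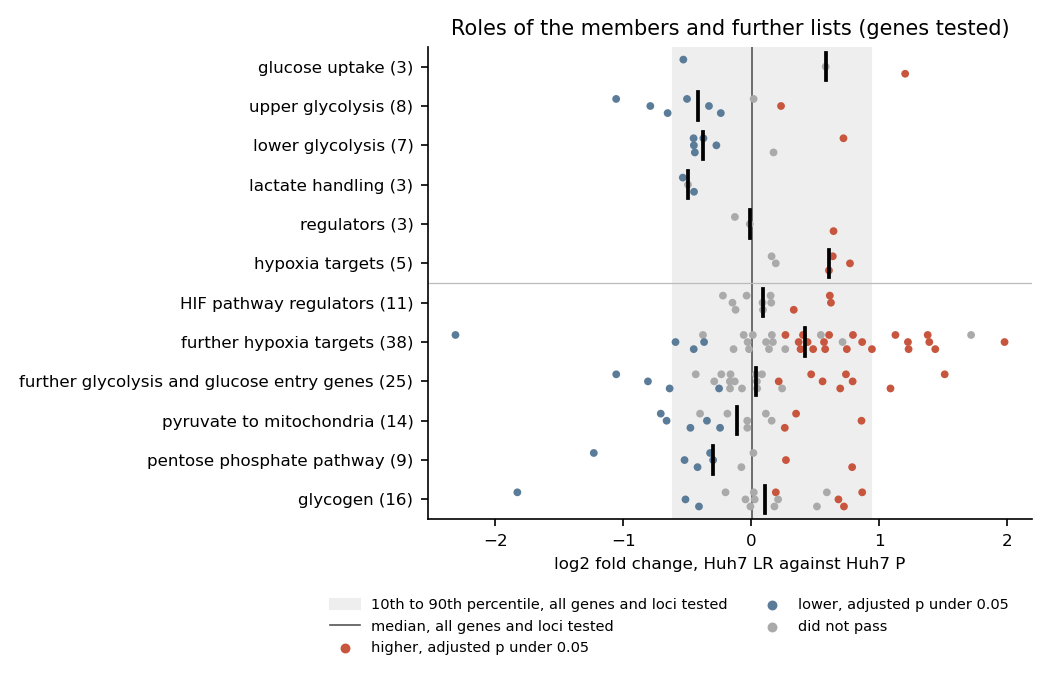
Log2 fold changes of the genes tested, by role of the members (upper part) and by further list (lower part), with the number tested in brackets. Black bars are medians, and the grey band spans the 10th to 90th percentile of all genes and loci tested (-0.61 to 0.93). The medians of upper glycolysis (-0.42), lower glycolysis (-0.38) and the pentose phosphate pathway (-0.30) lie left of that of all genes (0.00461), and those of both groups of hypoxia targets (0.61 and 0.42) lie right of it.

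Of the 6 fibroblast markers, COL1A1 and PDGFRB were tested and both were higher in resistant cells by edgeR, against 23.3% of all genes and loci. The untested COL1A2 had 0, 11 and 5 counts in parental and 0, 2 and 1 in resistant libraries. COL3A1 had 0, 5 and 0 counts in parental and 17, 0 and 14 in resistant libraries, and LUM had 2 counts in Huh7 P replicate 3 only. The summed level of the 6 was 2.19, 2.16 and 2.28 CPM in parental cells and 8.02, 5.02 and 5.56 CPM in resistant cells, COL1A1 had the most counts, and DCN was at 0. Of the 6 leukocyte markers, summed at 66.0, 65.8 and 60.8 CPM in parental cells and 10.4, 10.9 and 8.15 CPM in resistant cells, LYZ made up most, and TYROBP and HLA-DRA were at 0. The 5 endothelial markers summed to 38.8, 45.7 and 47.5 CPM in parental cells and 70.7, 71.2 and 65.04 CPM in resistant cells, mostly PECAM1. PECAM1 and VWF were tested and both were higher by edgeR, against 23.3% of all genes and loci. VWF had only 0, 0 and 8 counts in parental cells and 19, 26 and 21 in resistant cells, and CDH5, KDR and TEK were at 0. The 4 erythroid markers reached at most 0.276 CPM in sum, HBA2 having the most counts and HBB being at 0. The part of these markers in the results was not tested.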

How the data were processed

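Poly(A) RNA of 3 Huh7 P and 3 Huh7 LR samples was sequenced. The authors deposited a count for each gene and library, not normalized, and an FPKM value, which the authors scaled for length and depth. The submitters' processing notes name TopHat2, Cufflinks, DESeq and the build mm10, and the labels' extraction text speaks of honeybee larvae, whereas the gene identifiers are human: all 19974 are in GENCODE release 29 (GRCh38), 19910 with the same symbol. Use of strand in counting is not given in the sources used here, so genes on opposite strands that overlap are uncertain. The 34 lines that name no gene were left out, and loci without an annotated gene held 2.86% to 3.35% of the counts.

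Counts were tested with edgeR 4.0.16 in R 4.3.3 (TMM factors, filterByExpr with a minimum count of 10 and a minimum total of 15, quasi-likelihood test, Benjamini-Hochberg over 17531 genes and loci). CPM were scaled by TMM, and standard errors were derived from the F statistic. The alternatives were 3 other scalings, DESeq2 1.42.0, 2 other filters, a replicate block, limma-trend (limma 3.58.1) on log2 of the deposited FPKM plus 0.1 or 1, each library left out, and summed overlapping genes. The tests were first tested on simulated data. Shares within families used FPKM and an exact permutation test in scipy 1.17.1. The design did not say which gene stands for a family. Genes were at first picked by hand after their values had been seen, and this was replaced by the gene with the highest mean FPKM over all 6 libraries, a rule that does not use the groups but was also set after the values had been seen.

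Members and lists were chosen with earlier results of these data known. Each member is named, with values in every library for members past 2-fold, for hexokinase, aldolase, pyruvate kinase, glucose transporter and lactate dehydrogenase members and for hypoxia targets. From the further lists HIF1A, EPAS1, ARNT, VHL, EGLN1, HIF1AN, VEGFA, TXNIP, MLXIPL and genes past 2-fold are named, and others were chosen after their values were seen. Some genes that the rule takes are not reported. Promoters are from RefSeq (GRCh38.p14). Promoters other than that of SLC2A2 lie outside the planned rule. Figures were drawn with matplotlib 3.10.9.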

Additional observations from a re-analysis of the deposited data

How the results depend on the processing

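The number of members higher in Huh7 LR was between 5 and 7 over 17 alternatives and the number lower between 10 and 15, with 1 higher and 0 lower past 2-fold in each. Scaling moved the median log2 fold change of all genes to at most 0.0468. Of 486 log2 fold changes of members under alternatives, 444 kept their direction and their side of the threshold, 24 lost the call, 6 gained it and 12 changed sign, all 12 in genes that passed in neither fit. With a library left out, PFKM was from -0.01149 (without Huh7 LR replicate 1) to 0.04729, ENO2 from -0.1343 (without Huh7 LR replicate 1) to 0.4024, ANKRD37 from -0.0267 (without Huh7 LR replicate 1) to 0.2978, PFKFB3 from -0.2551 to 0.1918 (without Huh7 LR replicate 1; 0.109 without Huh7 P replicate 2) and PDK1 from -0.298 to 0.06503 (without Huh7 LR replicate 2). PFKFB3 was also above 0 with at least 10 counts in every library (0.00207), library totals alone (0.01494) and upper-quartile factors (0.02799), and PDK1 with limma-trend on log2(FPKM + 0.1), filtered or not (0.08409), and on log2(FPKM + 1) (0.058). The cause was not tested.

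All genes and loci past 2-fold numbered 353 higher and 120 lower with limma-trend on log2(FPKM + 0.1) without filter and 268 and 84 on log2(FPKM + 1), against 776 and 312. With a library left out they were 551 to 734 higher and 224 to 341 lower. Further hypoxia targets had 2 lower genes with filtered limma-trend, whether 0.1 or 1 was added to the FPKM, 3 without the filter, 5 with the replicate block and 3 to 6 with a library left out (6 without Huh7 LR replicate 1). RAB20 fell under the FPKM filter of limma-trend and was not tested there. With a library left out, HIF pathway regulators had 0 to 1 lower genes (1 without Huh7 LR replicate 2), and the pentose phosphate pathway 1 to 2 higher genes (1 without Huh7 LR replicate 3, Huh7 P replicate 2 or Huh7 P replicate 3). Computed from counts per kilobase of annotated exon, the difference in share was 1.45 percentage points for HK2 (2.12 on FPKM), -0.876 for ENO1 (-1.16), -1.30 for PKM (-0.412) and 0.272 for PGAM1 (0.201). With the genes picked by hand, an alternative chosen after seeing the data, 7 of 12 families were at the smallest exact p, as with the highest mean FPKM.

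Replicate numbers did not pair the samples: the correlation of deviations was 0.029, 0.0314 and 0.0317 for replicates 1, 2 and 3. With a replicate block, 7 members were higher and 15 lower, 1 and 0 past 2-fold, SLC16A3 among the lower (adjusted p = 0.0155 by edgeR, in a range of 0.000225 to 0.216 over all alternatives), and 4089 and 4033 genes and loci were higher and lower.

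The data come from 3 samples of each line and a single resistant line, and protein, lactate and oxygen were not measured in the files used here. PFKP, LDHB and CA9 were too low to test, and SLC2A3 and ANKRD37 were low.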

Other observations

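The Huh7 LR libraries differed among themselves in these genes. Among the 43 hypoxia targets tested, Huh7 LR replicate 1 was the highest of the 3 Huh7 LR libraries for 29 (67.4%), against 36.3% of all 17531 genes and loci, and replicate 2 was the lowest for 30 (69.8%), against 38.3%. Among the 16 glycolytic enzyme genes tested, lactate dehydrogenase included, replicate 2 was the highest for 10 (62.5%), against 38.0% of all genes and loci. The genes of a list share these libraries and are not independent of each other, and this pattern was noticed after the values were seen. What sets the libraries apart was not tested.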
